A study of Mus musculus with 2 samples.

Results

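This report describes the 9 genes that encode the main transcriptional regulators of oxidative metabolism in muscle, out of 35163 genes in the count table, across fiber classes of single mouse myofibers. The genes were taken as a list of known regulators and not ranked by their measured values, but earlier results of these data were known when the list was chosen. They are the coactivators Ppargc1a and Ppargc1b, the estrogen-related receptors Esrra, Esrrb and Esrrg, the peroxisome proliferator-activated receptors Ppara and Ppard, the nuclear respiratory factor gene Nrf1, and Tfam. Perm1, a muscle regulator that works with the first 2 of these families, is described beside them as the partner gene with the highest ratio.

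Single myofibers were isolated from the flexor digitorum brevis (FDB), which bends the toes and is made largely of fast fibers, of 1 untreated C57BL/6J mouse older than 3 months. The strain is that of the labels, while the study's methods name male mice of C57BL/6J and DBA2 backgrounds. The 2 samples are the 2 sequencing lanes of this mouse, so neither cells nor lanes are biological replicates and no test or p-value is given. The deposited counts also give an index for each cell, numbered 705 to 708 on lane 1 and 709 to 712 on lane 2. Cells that share an index are called a plate below, which is inferred and not stated by the labels. Libraries were made by mcSCRB-seq, in which a unique molecular identifier (UMI) marks every captured molecule so that its PCR copies count as 1. Of 763 cells with 763 distinct barcodes, 171 had more than 5000 genes and less than 20% of counts from mitochondrial genes (mt-) and were kept.

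Fiber classes were set by the largest of Myh1, Myh2, Myh4, Myh7 and Myh8 in each cell, which are the myosin heavy chain genes that define fiber types. This rule gave 117 fast 2X cells (Myh1), 51 fast 2A cells (Myh2), 2 slow cells (Myh7) and 1 fast 2B cell (Myh4). The study counted more cells as slow, among them cells with modestly elevated Myh7. Here a cell with Myh7 below Myh2 stayed in fast 2A. Myh7 ranged from 0 through a median of 151 to 6771 CPM in fast 2A cells. In fast 2X cells it ranged from 0 through 47.4 to 538 CPM. The part of fast 2A cells with much Myh7 in the ratios below was not tested. Fast 2X cells had a median of 255726 UMIs, from 28827 to 1542996, and a median mitochondrial share of 5.01%. Fast 2A cells had a median of 206510 UMIs, from 54160 to 616396, and a median mitochondrial share of 6.96%. Both classes lay on both lanes, with 59 and 58 fast 2X cells and 27 and 24 fast 2A cells on lanes 1 and 2. The 6 myofiber markers (Acta1, Ckm, Ttn, Neb, Tnnt3, Pygm) summed to 120477 CPM (counts per 1000000 counts) in fast 2X and 129348 CPM in fast 2A.

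Transcripts of other cell types were carried by the kept cells. Over 34 markers of 8 such types, the summed level per cell had a median of 284 CPM (79.6 to 16627) in fast 2X and 304 CPM (109 to 3896) in fast 2A, and no marker was at 0 in either class. Endothelial markers summed to 169 CPM in fast 2X and 153 CPM in fast 2A, smooth muscle and pericyte markers to 88.9 and 79.7 CPM, and fibroblast markers to 56.9 and 55.7 CPM. Schwann markers were at 23.9 and 13.7 CPM, erythroid at 19.8 and 7.81 CPM, immune at 14.6 and 14.2 CPM, satellite at 10.9 and 13.1 CPM, and adipocyte at 3.22 and 4.37 CPM. The part of these transcripts in the ratios below was not tested, apart from the values given without the 43 cells in which they were highest.

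As background, PGC-1 coactivators bind no DNA themselves and are recruited to genes by transcription factors, among them the estrogen-related receptors (ERR) and the peroxisome proliferator-activated receptors (PPAR). ERR proteins are orphan nuclear receptors that bind the half-site AAGGTCA and drive genes of the respiratory chain, the citric acid cycle and fatty acid oxidation. NRF1 binds promoters of nuclear genes for mitochondrial proteins, and TFAM packages the mitochondrial genome and is needed for its transcription. Oxidative fibers are known for higher activity of this network, and fast 2A fibers are more oxidative than fast 2X and 2B fibers.

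Levels are summed counts of a class divided by all counts of that class and scaled to CPM, with exact Poisson 95% limits, and ratios have exact conditional binomial 95% limits. All limits cover counting error only. A gene was called when it had at least 100 counts over both classes, differed by at least 1.5-fold and had limits excluding a ratio of 1. Counts were not divided by length, so levels are compared between classes for 1 gene and not between genes.

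All 9 regulators passed the minimum of 100 counts. Esrrb and Esrrg were called higher in fast 2A and none was called lower. Of 15688 genes tested, 4.09% were called higher and 13.4% lower in fast 2A, 17.5% in all, and the median log2 ratio of fast 2A over fast 2X was -0.12. At 2-fold none of the 9 was called, where 1.22% of all genes were higher and 4.47% lower, 5.7% in all. The 9 regulators had log2 ratios from 0.02 to 0.99 with a median of 0.24. Scaling by trimmed means (TMM factors) moved the median of all genes to -0.01 and the calls to 6.34% higher and 9.41% lower, and added 0.11 to each log2 ratio.

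**Figure D1:**
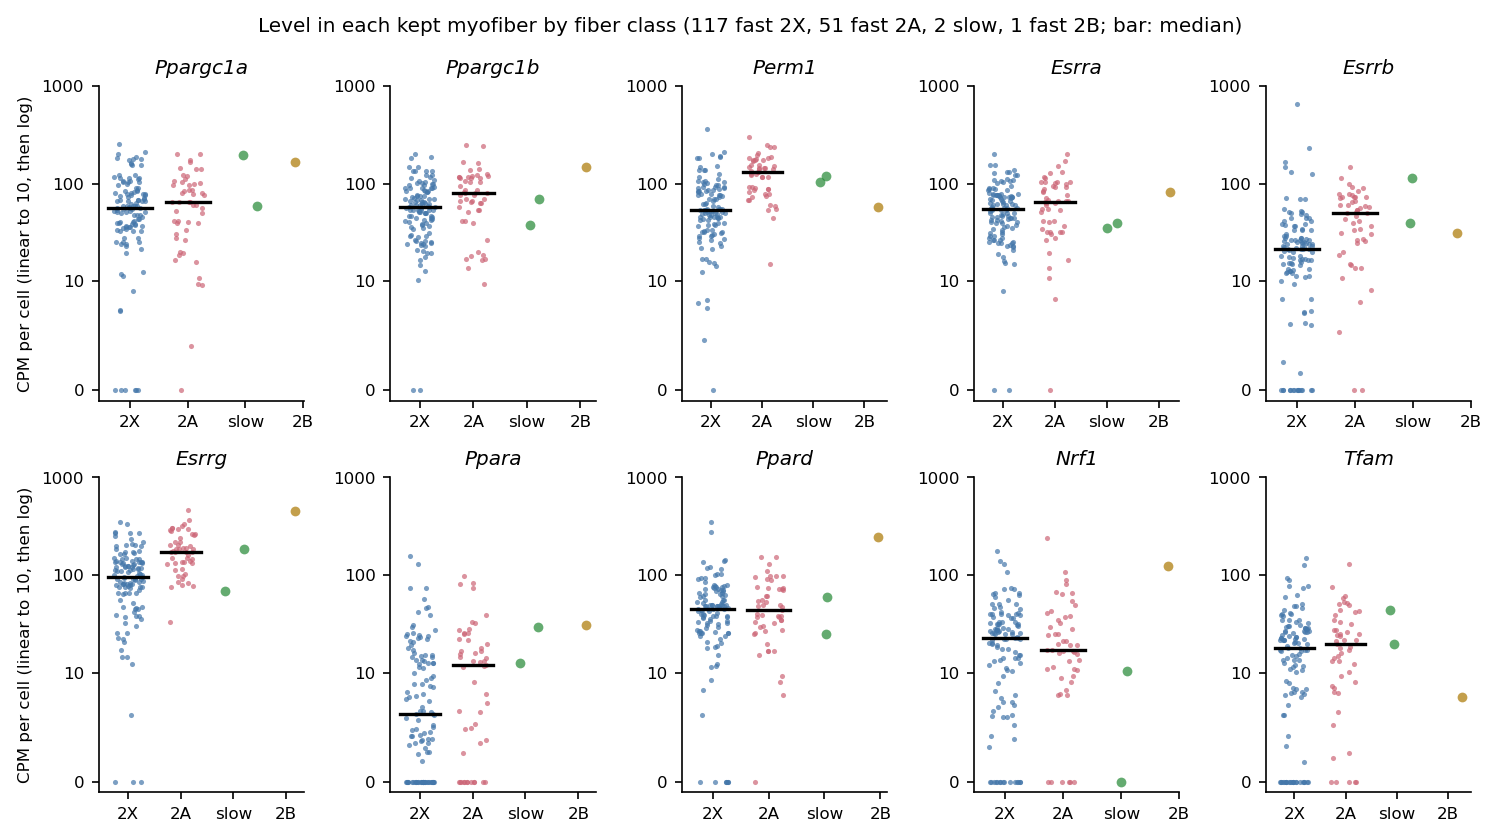
Level of each regulator in each kept cell, in CPM on an axis that is linear to 10 and logarithmic above, by fiber class (117 fast 2X, 51 fast 2A, 2 slow, 1 fast 2B), with a bar at the median of the larger classes. The cells of fast 2X and fast 2A overlap for every gene, and the fast 2A median of Esrrg (175 CPM against 96.5 CPM), Esrrb (50.5 against 21.4 CPM) and Perm1 (130 against 53.3 CPM) lies above that of fast 2X.

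The ERR genes Esrrb and Esrrg came first among the regulators. Esrrg, which encodes the ERR gamma receptor of oxidative tissues such as heart and slow muscle, lies on chr1:187608791-188214885 (plus strand, GRCm38). Its summed level was 198 CPM (190 to 206) in fast 2A and 111 CPM (108 to 115) in fast 2X. Single fast 2A cells ranged from 33.6 through a median of 175 to 462 CPM, and fast 2X cells from 0 through 96.5 to 347 CPM. The classes therefore overlapped widely, although 44 of 51 fast 2A cells were above the fast 2X median.

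The ratio of Esrrg was 1.77-fold, or 0.83 on the log2 scale (0.75 to 0.90). On lane 1 its level was 194 CPM in fast 2A and 105 CPM in fast 2X, and on lane 2 it was 203 and 117 CPM. Fast 2A was thus higher on both lanes, and it was also higher on 8 of 8 plates, with log2 ratios from 0.58 on plate 709 to 1.18 on plate 710. Without the cells highest in markers of other cell types the log2 ratio was 0.88. Esrrg overlaps the antisense gene 9330162B11Rik, which had 26 counts in the kept cells against 6934 for Esrrg. Whether counting used strand, and whether intronic reads were counted, is not given in the sources used here, and the search for shared transcript stretches below covers exons only.

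Esrrb encodes ERR beta, a receptor best known from embryonic stem cells, and lies on chr12:86361117-86521628 (plus strand). Its summed level was 51.6 CPM (47.6 to 55.9) in fast 2A and 26.0 CPM (24.4 to 27.7) in fast 2X. Fast 2A cells ranged from 0 through a median of 50.5 to 150 CPM, and fast 2X cells from 0 through 21.4 to 659 CPM. The highest cell was thus in the class with the lower median, and 39 of 51 fast 2A cells were above the fast 2X median.

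The Esrrb ratio was 1.99-fold, or 0.99 on the log2 scale (0.84 to 1.14). By lane, fast 2A and fast 2X were at 55.0 and 24.0 CPM on lane 1 and at 47.2 and 27.7 CPM on lane 2. Fast 2A was higher on 8 of 8 plates, from 0.19 on plate 705 to 1.62 on plate 708. The fast 2X cell at 659 CPM held 19 Esrrb counts among 28827 UMIs and was the shallowest of the kept cells, with 16.9% mitochondrial counts and markers of other cell types at 2081 CPM against a median of 292 CPM. The next cell was at 230 CPM. When the CPM values of single cells were averaged in place of summing counts, the log2 ratio of Esrrb was 0.56, below the 1.5-fold limit, and without this cell it was 0.82. Without the cells highest in markers of other cell types it was 0.87.

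Esrra encodes ERR alpha, the widely expressed member and a classical partner of PGC-1alpha, on chr19:6910977-6921813 (minus strand). Its level was 62.1 CPM (57.7 to 66.8) in fast 2A and 52.5 CPM (50.3 to 54.8) in fast 2X, a log2 ratio of 0.24 (0.12 to 0.37). On lane 1 fast 2A and fast 2X were at 53.7 and 56.4 CPM, and on lane 2 at 73.4 and 49.3 CPM. The lanes thus pointed in opposite directions, with log2 ratios of -0.07 and 0.57, and fast 2A was higher on only 3 of 8 plates. Without the cells highest in other markers the log2 ratio was 0.09. Esrra overlaps Trmt112, a tRNA methyltransferase cofactor gene on the opposite strand, which had 1027 counts in the kept cells against 2839 for Esrra.

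The composition of ERR counts was taken by class and lane. Esrra made up 27.6% (26.6 to 28.7, Clopper-Pearson 95% limits) of the counts of the 3 genes in fast 2X and 19.9% (18.7 to 21.3) in fast 2A. Esrrg made up 58.7% (57.5 to 59.8) and 63.5% (61.9 to 65.0), and Esrrb 13.7% (12.9 to 14.5) and 16.6% (15.4 to 17.8). Most of the difference lay on lane 1, where Esrra made up 30.5% in fast 2X and 17.8% in fast 2A, against 25.4% and 22.7% on lane 2. No stretch of 66 bases, the length of the cDNA reads, was shared between transcripts within the ERR, PPAR or PGC-1 family in GENCODE M21.

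**Figure D2:**
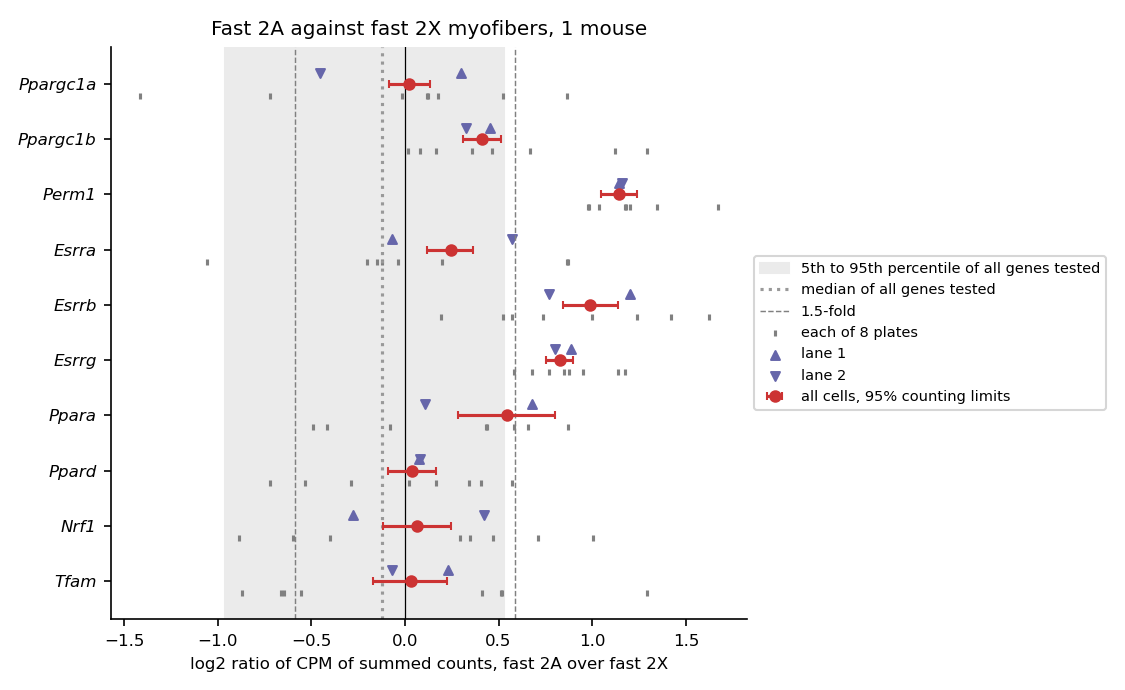
Log2 ratio of fast 2A over fast 2X for each gene, with 95% counting limits (circles), the value on each lane (triangles) and on each of 8 plates (ticks), over the 5th to 95th percentile of all tested genes (grey, -0.96 to 0.53) and their median (dotted). Perm1, Esrrb and Esrrg lie past 1.5-fold (dashed) on both lanes, while the lanes of Ppargc1a, Esrra, Nrf1 and Tfam lie on opposite sides of 0.

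The coactivators of these receptors differed less between the classes. Ppargc1a encodes PGC-1alpha, the exercise-induced coactivator of mitochondrial biogenesis, on chr5:51454250-51567726 (minus strand). Its level was 76.3 CPM (71.5 to 81.5) in fast 2A and 75.1 CPM (72.4 to 77.9) in fast 2X, a log2 ratio of 0.02 (-0.09 to 0.13). Cells ranged from 0 through 64.5 to 202 CPM in fast 2A and from 0 through 57.0 to 258 CPM in fast 2X. The classes covered nearly the same range, and 30 of 51 fast 2A cells were above the fast 2X median.

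The lanes of Ppargc1a disagreed beyond counting error. Fast 2A was at 92.7 CPM (85.6 to 100) on lane 1 and at 54.6 CPM (48.4 to 61.4) on lane 2, whereas fast 2X was at 75.3 and 74.9 CPM. The log2 ratio was 0.30 (0.16 to 0.44) on lane 1 and -0.46 on lane 2, so the pooled value near 0 is the balance of 2 opposite values. Plate values ran from -1.41 on plate 710, which held 2 fast 2A cells, to 0.87 on plate 708.

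Ppargc1b encodes PGC-1beta, the related coactivator. It was at 89.0 CPM (83.7 to 94.5) in fast 2A and 66.9 CPM (64.4 to 69.5) in fast 2X, a log2 ratio of 0.41 (0.31 to 0.52) that did not reach 1.5-fold. Lane 1 had 94.7 and 69.2 CPM and lane 2 had 81.4 and 65.0 CPM in fast 2A and fast 2X. Fast 2A was higher on both lanes and on 8 of 8 plates, from 0.02 to 1.29. Cells ranged from 9.77 through 79.4 to 250 CPM in fast 2A and from 0 through 57.6 to 199 CPM in fast 2X, with 36 of 51 fast 2A cells above the fast 2X median. Of the counts of both coactivators, Ppargc1b made up 47.1% (45.8 to 48.4) in fast 2X and 53.8% (51.6 to 56.1) in fast 2A, with 47.9% and 50.5% on lane 1 and 46.5% and 59.9% on lane 2.

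Perm1 encodes a muscle protein induced by PGC-1 and ERR that in turn promotes oxidative genes, and lies on chr4:156215868-156221307 (plus strand). It was at 125 CPM (119 to 132) in fast 2A and 56.6 CPM (54.3 to 59.0) in fast 2X. Fast 2A cells ranged from 15.1 through 130 to 304 CPM, and fast 2X cells from 0 through 53.3 to 359 CPM. The ranges overlapped, yet 49 of 51 fast 2A cells were above the fast 2X median. The ratio was 2.21-fold, or 1.14 on the log2 scale (1.05 to 1.24), with 1.14 on lane 1, 1.16 on lane 2 and 0.98 to 1.67 over 8 plates. Perm1 was named here by its ratio, so its place above the regulators is a description.

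The PPAR genes encode receptors that are activated by fatty acids. Ppara, on chr15:85734983-85802819 (plus strand), was at 15.4 CPM (13.2 to 17.8) in fast 2A and 10.5 CPM (9.55 to 11.6) in fast 2X, a log2 ratio of 0.54 (0.28 to 0.80) just short of 1.5-fold. It rested on 183 and 413 counts. Lane 1 had 19.4 and 12.1 CPM in fast 2A and fast 2X and lane 2 had 9.98 and 9.27 CPM, so the classes differed mainly on lane 1, and fast 2A was higher on 5 of 8 plates. Ppara was also higher in shallow cells: within fast 2X it was at 17.7 CPM in the 59 cells with fewer counts and 9.01 CPM in the 58 with more, and within fast 2A at 18.3 and 14.4 CPM in 26 and 25 cells. Its log2 ratio was thus 0.04 among the shallower cells and 0.68 among the deeper ones.

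The same division by depth moved other genes. Esrra was at 67.9 CPM in the shallower and 49.2 CPM in the deeper fast 2X cells and at 83.0 and 55.4 CPM in fast 2A, and Perm1 was at 76.1 and 52.5 CPM in fast 2X. The log2 ratio of Esrrb was 0.45 among the shallower cells (42.4 against 31.0 CPM), below 1.5-fold, and 1.13 among the deeper ones, and the shallower fast 2X cells include the cell at 659 CPM. Esrrg had 0.83 and 0.84 and Perm1 0.83 and 1.22, so these were past 1.5-fold at both depths.

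Ppard, the PPAR delta gene on chr17:28232700-28301474 (plus strand), was at 54.8 CPM (50.7 to 59.2) in fast 2A and 53.3 CPM (51.1 to 55.7) in fast 2X, a log2 ratio of 0.04 (-0.09 to 0.17). These limits lie within 1.5-fold but cover counting error only. Plate log2 ratios ran from -0.72 on plate 710, which held 2 fast 2A cells, to 0.57 on plate 706. Fast 2A was higher on 5 of 8 plates. On lane 1 the levels were 49.7 and 47.2 CPM and on lane 2 61.6 and 58.3 CPM, so both classes were higher on lane 2. Cells ranged from 0 through 43.6 to 155 CPM in fast 2A and from 0 through 45.0 to 354 CPM in fast 2X, and 25 of 51 fast 2A cells were above the fast 2X median. Pparg, the third PPAR gene and the regulator of fat cells, held 7.09% of PPAR counts in fast 2X and 7.62% in fast 2A.

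The pooled log2 ratios of Nrf1 and Tfam were close to 0. Nrf1, on chr6:30047988-30153458 (plus strand), was at 27.4 CPM (24.5 to 30.5) in fast 2A and 26.2 CPM (24.6 to 27.8) in fast 2X, a log2 ratio of 0.07 (-0.12 to 0.25). Lane 1 had 24.1 CPM in fast 2A and 29.3 CPM in fast 2X, and lane 2 had 31.7 and 23.6 CPM, so the order of the classes was opposite on the 2 lanes. Plate log2 ratios ran from -0.89 on plate 706 to 1.01 on plate 709, and fast 2A was higher on 5 of 8 plates. Only 20 of 51 fast 2A cells were above the fast 2X median, and by the median over cells the log2 ratio was -0.40.

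Tfam, on chr10:71225464-71238280 (minus strand), was at 23.3 CPM (20.7 to 26.3) in fast 2A and 22.9 CPM (21.4 to 24.4) in fast 2X, a log2 ratio of 0.03 (-0.17 to 0.23). The lanes gave 22.2 and 18.9 CPM on lane 1 and 24.9 and 26.0 CPM on lane 2. Cells ranged from 0 to 131 CPM in fast 2A and from 0 to 151 CPM in fast 2X, around medians of 19.6 and 17.9 CPM. Plate log2 ratios ran from -0.87 on plate 711 to 1.29 on plate 706, and fast 2A was higher on 4 of 8 plates. The classes could not be told apart for Tfam.

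Both classes were then divided by the share of Myh2 in the sum of Myh1 and Myh2, in steps of 20 percentage points that held 48, 59, 16, 29 and 16 cells. Myh7 did not enter this share. Esrrg followed this share in 1 direction, with 106, 116, 163, 194 and 206 CPM from the lowest to the highest step. Perm1 was at 46.8, 65.4, 99.8, 131 and 125 CPM. Esrrb was at 20.4, 35.0, 20.8, 56.8 and 53.5 CPM, so the cells with near-equal Myh1 and Myh2 were at the level of the purest 2X cells, and the higher level appeared from 60% Myh2 upward.

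Ppargc1b was at 64.0, 72.6, 71.9, 89.5 and 86.1 CPM, with both upper steps above the lower 3. Ppargc1a was at 74.7, 68.9, 110, 65.5 and 90.9 CPM over the same steps, with its highest value in the middle step of 16 cells, where the median cell was at 47.3 CPM. Esrra was highest in the step of 60 to 80% (70.4 CPM) and at 49.1 and 49.7 CPM in the lowest and highest steps, and Ppard, Tfam and Nrf1 ranged over 46.4 to 57.7, 21.3 to 28.2 and 19.4 to 32.7 CPM with no order along the steps. Ppara had its highest level, 22.9 CPM, in the middle step, against 8.09 CPM in the lowest and 13.2 CPM in the highest. The steps differed in depth, with median UMIs of 330043, 199607, 171238, 228026 and 153911, and the part of depth was not tested.

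**Figure D3:**
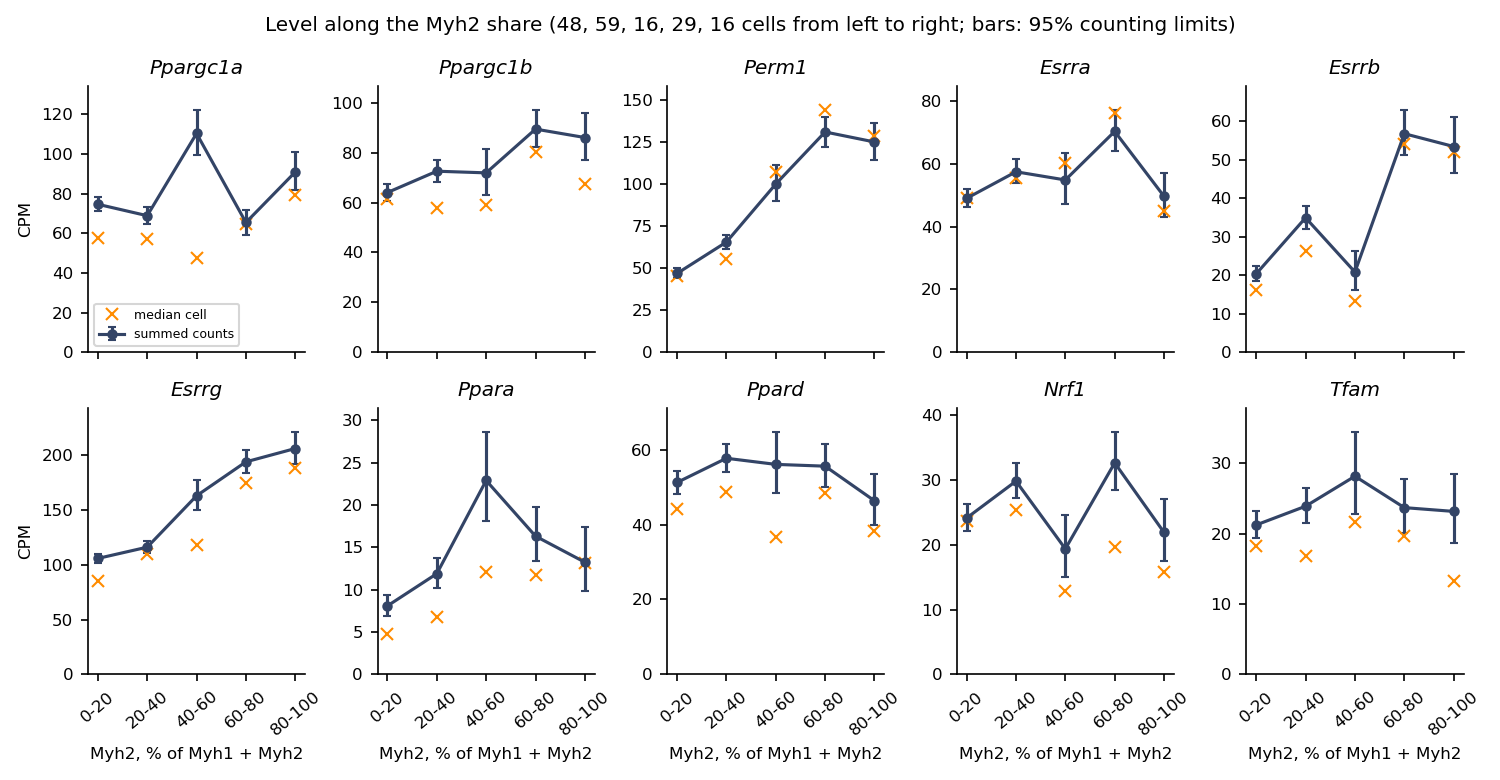
CPM of summed counts with 95% counting limits (circles) and of the median cell (crosses) along the share of Myh2 in Myh1 and Myh2, in 5 steps of 48, 59, 16, 29 and 16 fast 2X and fast 2A cells. Esrrg goes from 106 to 206 CPM with each step above the one before, whereas Ppard stays between 46.4 and 57.7 CPM.

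Among the 117 fast 2X cells alone, the 69 with at least 20% Myh2 were compared with the 48 below 20%. Esrrb was at 33.1 against 20.4 CPM, a log2 difference of 0.70 (0.52 to 0.88), and Ppara was at 13.6 against 8.09 CPM, or 0.75 (0.47 to 1.04). Perm1 had a log2 difference of 0.56 (0.44 to 0.68). The corresponding value of Esrrg was 0.17 (0.08 to 0.25), from 106 to 119 CPM, smaller than its value of 0.83 between the classes. The other 6 regulators had values from 0.02 for Ppargc1a to 0.25 for Nrf1. The cell of 659 CPM Esrrb lies in the group with more Myh2.

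The share of cells with at least 1 UMI followed depth and is compared at 1 depth. Esrrg was found in 97.4% of fast 2X and 100% of fast 2A cells (51 of 51, exact limits from 93.0%), and when each cell was thinned to 28827 UMIs the expected shares were 86.7% and 98.0%. Esrrb was found in 87.2% and 96.1%, or 46.8% and 68.5% after thinning. Ppara was found in 71.8% and 76.5%, or 24.6% and 32.6% after thinning. For the other 6 regulators the thinned shares of the classes lay within 5 percentage points of each other, from 41.1% for Tfam to 83.5% for Ppargc1b.

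For reference, the endothelial genes Tek and Pecam1 were found in 94.9% and 87.2% of fast 2X cells (76.7% and 42.8% after thinning) and in 98.0% and 90.2% of fast 2A cells (78.2% and 45.9%), at the same median depths of 255726 and 206510 UMIs. The fat cell gene Adipoq was found in 3.42% and 3.92%. At equal depth Esrrg, Ppargc1b and, by less than 1 percentage point, Esrra were found in more cells of both classes than Tek. The other 6 regulators were found in no more cells than Tek, so a UMI of these genes in a cell is not read as expression by that cell, and their levels are given over classes.

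The rarer classes are given as single cells. The first slow cell, with 478806 UMIs, held 95 counts of Ppargc1a (198 CPM, 161 to 243), 88 of Esrrg (184 CPM, 147 to 226) and 55 of Esrrb (115 CPM, 86.5 to 150), while Ppargc1b had 18 counts (37.6 CPM, 22.3 to 59.4). The second slow cell, with 100629 UMIs, had 6 counts of Ppargc1a (59.6 CPM, 21.9 to 130), 7 of Esrrg, 4 of Esrrb and none of Nrf1, for which 0 counts allow up to 36.7 CPM by the exact limit. The fast 2B cell, with 257020 UMIs, had 116 counts of Esrrg (451 CPM, 373 to 541), 63 of Ppard (245 CPM, 188 to 314), 43 of Ppargc1a (167 CPM, 121 to 225) and 32 of Nrf1 (125 CPM, 85.2 to 176). Its Esrrg level was near the highest fast 2A cell, and its Tfam count was 2. No class can be described from 1 or 2 cells.

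The 592 cells that were left out had a median of 16032 UMIs and 48.0% mitochondrial counts. To set them beside the kept cells, levels were taken as CPM of the nuclear genes alone. Ppard was at 102 in the cells left out against 57.9 in the kept cells, Nrf1 at 46.2 against 28.4, Esrrb at 51.4 against 34.8 and Ppara at 18.9 against 12.6. Ppargc1a was at 57.7 against 81.8, Perm1 at 59.7 against 77.5 and Tfam at 17.6 against 24.6. Ppargc1b (75.2 and 76.7), Esrrg (129 and 142) and Esrra (47.9 and 58.2) differed less. The regulators were thus not reduced together in the cells left out.

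The wider network was described by lists of pathway genes, which were also chosen with earlier results of these data known. Of 25 partner genes (coactivators, corepressors, partner receptors and factors), Perm1 was called higher and Rxrg lower in fast 2A, beside 4.09% and 13.4% of all genes, with a median log2 ratio of 0.03. Rxrg encodes a retinoid X receptor (RXR), of the family that pairs with PPAR proteins, and was at 10.9 CPM in fast 2A and 20.8 CPM in fast 2X, a log2 ratio of -0.93 (-1.21 to -0.66). Lpin1, a lipid phosphatase that also acts as a coactivator and had the most counts of this list, had a log2 ratio of -0.20, the corepressor gene Nrip1 -0.38 and Gabpb1, a subunit of NRF-2, 0.52 (0.18 to 0.85).

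Of 19 genes that act upstream of PGC-1, 4 were called lower in fast 2A (3 with TMM factors) and none higher, beside 13.4% and 4.09% of all genes, and the median was -0.27 beside -0.12 for all genes. The 4 were the calcium-calmodulin kinase genes Camk2a (132 CPM in fast 2A against 224 CPM in fast 2X, log2 -0.76) and Camk4 (6.63 against 11.6 CPM, -0.80), the lysosomal regulator gene Tfeb (46.5 against 76.3 CPM, -0.71) and the stress kinase gene Mapk14 (67.2 against 104 CPM, -0.63), the last pair named after their values were seen. Mef2d had the highest ratio of the list at 0.40, followed by Camk2b at 0.24. Mef2c, the gene with the most counts, was at 0.14.

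The genes that express mitochondrial DNA had a median of 0.00 over 17 tested. Of these, 1 was called higher and 2 lower, beside 4.09% and 13.4% of all genes. Tfb1m, a ribosomal RNA methyltransferase gene, was called higher (4.03 against 2.65 CPM, log2 0.60, 0.08 to 1.11), on 48 and 104 counts. Polrmt, the mitochondrial RNA polymerase gene (10.8 against 18.3 CPM, -0.76), and Mtpap, the mitochondrial poly(A) polymerase gene (8.40 against 12.6 CPM, -0.59), were called lower. Lonp1, a mitochondrial protease gene, was at -0.20 and Slirp, an RNA-binding protein gene, at 0.48.

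In summed counts, respiratory chain, citric acid cycle and mitochondrially encoded genes lay mostly above 0. Whether the regulators act on them in these cells was not tested. Of 27 respiratory chain and citric acid cycle genes, 26 had log2 ratios above 0 with a median of 0.33. Beside 4.09% of all genes, 2 of the 27 were called higher. These were Ckmt2, the mitochondrial creatine kinase (422 against 152 CPM, log2 1.47), and Cox7a1, a cytochrome c oxidase subunit (472 against 295 CPM, 0.68). Cox6a2, also a subunit of that complex, was at 0.55, Cs, citrate synthase, at 0.14 and Idh3a at -0.26. Of all genes tested, 36.4% had a log2 ratio above 0. The 9 mitochondrially encoded protein genes tested were all above 0 in summed counts, from 0.16 for mt-Nd6 to 0.52 for mt-Co1, with a median of 0.31. When CPM was averaged over cells in place of summing counts, their median was -0.08, beside -0.10 for all genes. Their direction thus depended on how cells were combined. None of them was called, beside 17.5% of all genes.

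Fatty acid genes had the most calls. Of 21 tested, 7 were called higher and 1 lower, beside 4.09% and 13.4% of all genes, with a median of 0.43. Lpl, the lipoprotein lipase, was at 98.7 CPM in fast 2A and 15.2 CPM in fast 2X (log2 2.70, 2.56 to 2.84), and Cd36, a fatty acid transporter, at 63.0 and 26.1 CPM (1.27, 1.13 to 1.41). The other 5, named after their values were seen, were Plin5 (1.26), Fabp3 (0.97), Acadm (0.91), Acadl (0.86) and Slc25a20 (0.62), which serve lipid droplets, fatty acid binding, beta-oxidation and carnitine transport. Ucp3, an uncoupling protein and a classical PPAR target, was called lower (25.2 against 39.9 CPM, -0.66), and Pdk4, the pyruvate dehydrogenase kinase, was at 0.32. Lpl is also expressed by fat cells, and Cd36 by fat and endothelial cells. The summed markers of fat and endothelial cells were 4.37 and 153 CPM in fast 2A and 3.22 and 169 CPM in fast 2X.

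Markers of other cell types are set beside 13.4% of all genes called lower and 4.09% called higher in fast 2A. Of the markers tested, 3 of 7 endothelial, 3 of 5 smooth muscle and pericyte, 1 of 3 Schwann and 2 of 2 erythroid genes were called lower and none higher, while fibroblast, satellite, immune and adipocyte markers had no calls. These calls rest on summed counts. The median cell had 131 CPM of endothelial markers in fast 2X and 135 CPM in fast 2A, and 64.4 and 68.5 CPM of smooth muscle and pericyte markers. The highest fast 2X cells had 2406 and 10458 CPM, against 831 and 591 CPM in fast 2A. For Schwann (9.77 and 8.30 CPM) and erythroid markers (3.82 and 2.93 CPM) the median cell was lower in fast 2A. Of 22 neuronal genes that the study discusses, 3 were called lower, near the share of all genes, with a median of -0.16 beside -0.12 for all genes. The study chose this list on these cells.

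**Figure D4:**
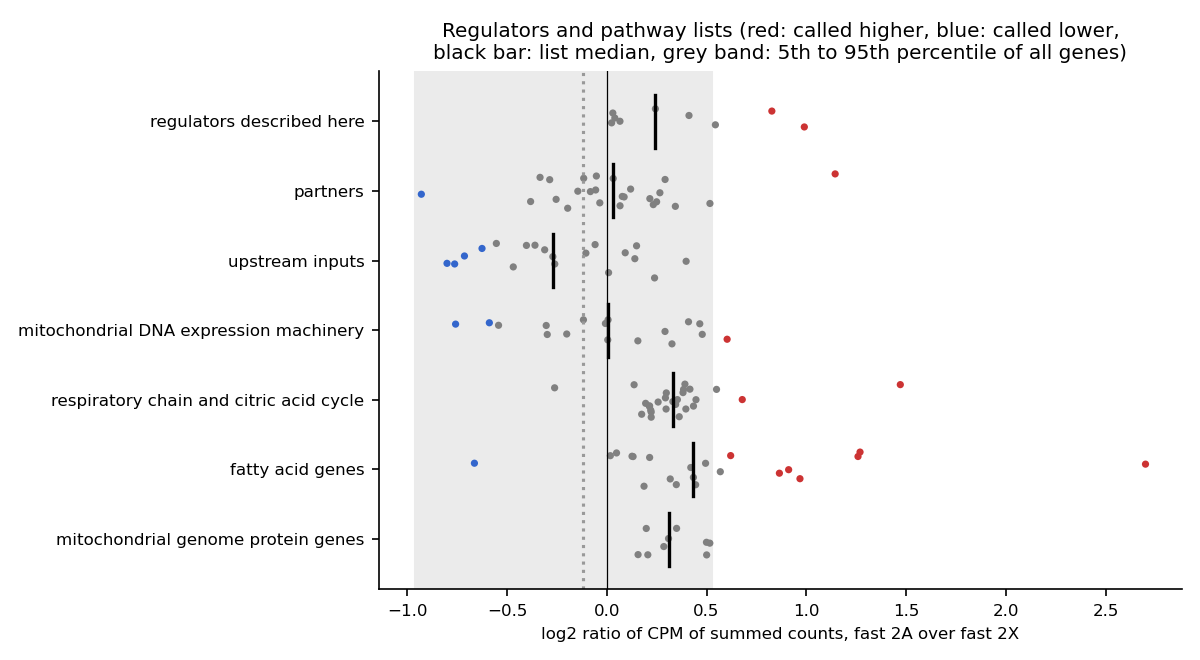
Log2 ratio of fast 2A over fast 2X for the genes with at least 100 counts in each list, with genes called higher in red and called lower in blue, list medians as black bars and the 5th to 95th percentile of all genes in grey (-0.96 to 0.53). Fatty acid genes have 7 of 21 called higher and a median of 0.43, and upstream inputs have 4 of 19 called lower and a median of -0.27.

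Genes that varied with each regulator were ranked by the Pearson correlation of log2(CPM + 10) over the 171 cells among 5894 genes with at least 1000 counts. These cells share 1 mouse and differ in depth and class, so the values are descriptions. Among the highest for Esrrg were Kcnma1, a calcium-activated potassium channel (r = 0.53, and 0.47 within the 117 fast 2X cells), Qk (0.49) and Tnik (0.49). Over all cells the gene most like Esrrb was Esrrg (0.45, and 0.46 without the shallowest cell). Close behind were Dlgap2 (0.44), Dock1 (0.44), Col23a1 (0.44) and Kirrel3 (0.44), the last of the neuronal genes that the study discusses. Within fast 2X all of these were above Esrrg (0.41), with Dlgap2 at 0.56, Kirrel3 at 0.51, Dock1 at 0.50 and Col23a1 at 0.45. Within the 51 fast 2A cells the value of Esrrb with Esrrg was 0.22.

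Esrra was most like Fitm1, a lipid droplet gene (0.45, and 0.49 within fast 2X), Ndufv2, a complex I subunit (0.37), Pink1, a mitochondrial kinase (0.37), Psmd13 (0.36) and Yjefn3 (0.36), and its correlation with Esrrb was -0.15 and with Esrrg -0.03. Among the genes most like Ppargc1b were Prrx1 (0.45), Agbl1 (0.35), Mreg (0.35) and Nktr (0.34). Ppargc1a had weaker leaders, Usp34 (0.39), Zbtb4 (0.38), Tsc22d2 (0.36), Angpt1 (0.36) and Hectd2os (0.36), and its correlation with Ppargc1b was 0.21, with Esrra -0.02 and with Perm1 -0.06.

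For Ppard the leaders were Fchsd2 (0.51), Auts2 (0.50), Pcdh15 (0.47), Etv6 (0.47) and N4bp2l2 (0.46), and for Nrf1 they were Ptprg (0.51), Csnk1g1 (0.48), Clstn2 (0.47), Cdc14a (0.47) and Il12rb2 (0.46). Ppara and Tfam had medians under 5 counts per cell and were not ranked. Among the 9 regulators, the highest pair after Esrrb and Esrrg was Esrrg with Nrf1 (0.32), close to Esrrg with Ppargc1b (0.32) and Esrrb with Ppard (0.32).

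The bases before the start sites were searched for the motifs of this network, in windows of 250 bases that end at the RefSeq start (14 windows for Perm1 and the regulators other than Ppargc1b, which was not searched, and 32851 windows for all genes, GRCm38.p6, both strands). The stretches below are shown because Perm1 and Esrrb had the highest ratios, and because they hold the matches found. AAGGTCA, the ERR half-site, occurred in 4.08% of all windows and among these 14 only in that of Perm1, as its complement TGACCTT from 202 to 196 bases before the start. TGACG, the core of the cAMP response element, occurred in 17.8% of windows and stood at 2 places before Esrrb, from 158 and from 117 bases before the start. Each is printed from 5′ to 3′ with the match in capitals and ends before the first base of the GENCODE gene model.
Perm1 (chr4:156215677-156215867, plus strand): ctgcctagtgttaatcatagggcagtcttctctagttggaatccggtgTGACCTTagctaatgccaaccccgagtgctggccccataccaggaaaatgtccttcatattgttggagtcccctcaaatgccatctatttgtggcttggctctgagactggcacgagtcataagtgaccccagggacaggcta
Esrrb (chr12:86360867-86361116, plus strand): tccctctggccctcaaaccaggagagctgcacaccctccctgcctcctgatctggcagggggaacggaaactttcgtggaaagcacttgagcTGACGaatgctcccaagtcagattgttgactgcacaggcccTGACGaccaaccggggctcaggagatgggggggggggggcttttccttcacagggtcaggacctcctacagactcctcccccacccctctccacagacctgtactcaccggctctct

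Other sites were found at Esrrg, Tfam and Ppara, shown within 30 bases each. Unlike the stretches above, these lie before a RefSeq start but inside the GENCODE gene models given above. A MEF2 site, found in 1.69% of windows, stood from 22 to 13 bases before the first RefSeq start of Esrrg. The GABP site CCGGAAGT, found in 2.88%, stood from 47 to 40 bases before the RefSeq start of Tfam. The NRF1 site, found in 0.782%, stood from 31 to 22 bases before a RefSeq start of Ppara.
Esrrg (chr1:187608974-187609003, plus strand): taaaactttgCTATTTATAGtctacgcccg
Tfam (chr10:71238073-71238102, minus strand): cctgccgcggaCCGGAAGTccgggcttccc
Ppara (chr15:85735735-85735764, plus strand): gggctcggtgGCGCATGCGCgcggactagg

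The extended ERR site TCAAGGTCA (0.387% of windows), the direct repeat bound by PPAR and RXR (0.0335%) and the full element TGACGTCA (1.55%) had no match in the 14 windows. TGACG also occurred before Ppargc1a and Ppara, and a MEF2 site before 1 Nrf1 start. A match is a run of letters in the reference and no measurement of binding, and a missing match says only that the letters are not in this window.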

How the data were processed

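Per the labels and the study's methods, single FDB myofibers were sorted into plates after collagenase digestion, and mcSCRB-seq reads were mapped with STAR 2.5.4b to GRCm38 with spike-in sequences and counted through zUMIs and featureCounts. The authors deposited 1 table of raw UMI counts for 763 cells, with other descriptive values of each cell (index, lane, percentages) above the counts. From there, cells with over 5000 genes and under 20% mt- counts were kept (3 fragments among them), with no doublet caller. Counts were summed per class and scaled to CPM (Python 3.11.15, numpy 2.4.6, pandas 2.3.3, scipy 1.17.1). Limits are 95% and cover counting error only. The call rule was tested on simulated counts that held counting error only. Its behavior under the spread between cells, plates and lanes was not tested. Symbols listed more than once (4 rows) were not tested.

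The regulators and gene lists were chosen with earlier results of these data known. All 9 regulators are named. From each list the gene with the most counts and the 2 highest and 2 lowest ratios are named, and for each regulator with a median of at least 5 counts the 5 most correlated genes. Some of these genes are not reported here. Marker genes are given as list sums, counts and levels per cell. Alternatives were other scalings, averaging over cells, stricter cells, other minimums and folds, and leaving out each lane. Median over cells, division by depth, cells without fragments and the mean without the shallowest cell were added after seeing the data.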

Additional observations from a re-analysis of the deposited data

How the results depend on the processing

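The number of regulators called was 2. It was 1 when CPM was averaged over cells, 1 among cells at or below the median depth of their class, and 0 with a minimum of 2-fold, where 1.22% of all genes were called higher. It was 2 or 3 under the other 14 alternatives, the third being Ppara. No regulator changed from a call to the opposite direction. Without replicate 1 or without replicate 2, that is on 1 lane alone, the log2 ratio ranged from -0.46 to 0.30 for Ppargc1a, -0.07 to 0.57 for Esrra, -0.28 to 0.42 for Nrf1 and 0.11 to 0.68 for Ppara. At the 1.5-fold limit, Esrrg stayed called in 15 of 15 settings (0.80 to 0.94) and Esrrb in 13 of 15 (0.45 to 1.24). Neither was called at 2-fold.

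Of 168 list counts recomputed, 138 stayed within 1.5 times. With TMM factors or median-of-ratios size factors, partners called higher were 2, mitochondrial DNA expression genes 2 higher and 1 lower, fatty acid genes 0 lower, and mitochondrially encoded genes 3 higher. With totals without mt- genes, mitochondrial DNA expression genes called lower were 1. With the mean over cells, partners were 2 higher and 0 lower, mitochondrial DNA expression genes 2 higher and 0 lower, and fatty acid genes 0 lower. Without cells of near-equal leading Myh genes, with stricter cells and without the cells highest in other markers, partners called higher were 2. Stricter cells gave 1 mitochondrially encoded gene called higher, and leaving out the cells highest in other markers gave 2, with 1 respiratory gene and 0 mitochondrial DNA expression genes called higher. With a minimum of 500 counts, mitochondrial DNA expression genes called higher were 0. On single lanes, partners called higher were 2 to 4 and called lower 1 to 4, fatty acid genes called lower 0 to 1 and mitochondrial DNA expression genes called lower 0 to 3. The cause was not tested.

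No paired analysis was possible because both lanes hold cells of 1 mouse and the result comes from no test. Genes with few counts, such as Ppara and Tfb1m, are limited by depth.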
